A study of Mus musculus with 9 samples.

Results

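Genes were sought whose level in the calf muscle of mice differed only while androgen was missing. All 9 arrays of the series entered the comparison. They came from young adult mice of the outbred CD-1 stock in 3 groups. The androgen deprived group had been castrated and carried a placebo pellet (3 arrays). Androgen replete muscle came from intact animals after sham surgery with a placebo pellet (3 arrays) and from castrated animals with a testosterone pellet of 2.5 mg that released over 60 days (3 arrays). Surgery or handling was thus common to all groups, castration was common to the deprived and the testosterone group, and a placebo pellet was common to the deprived and the sham group. The gastrocnemius, a mixed and mostly fast calf muscle, was taken on day 14 from mice that had been fed. RNA of 3 animals was mixed for each array, so an SD below is the spread between pools. The mean of the 3 castration arrays was set against the mean of the sham mean and the testosterone mean for 18193 genes, each read from 1 Affymetrix probe set on the log2 scale.

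Androgens act through the androgen receptor, a nuclear receptor that binds DNA as a dimer and changes transcription of its targets. In skeletal muscle they favour growth, and their loss is known to lower polyamine synthesis, to reduce muscle mass and to change fuel use. The contrast asks which genes differed after castration from the mean of the sham and testosterone groups. It does not require a return to the intact level, so testosterone and sham were also compared with each other.

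Without androgen, 10 genes passed the limma test at an adjusted p under 0.05, or 0.0550% of those tested, 6 of them lower and 4 higher. The 6 lower genes (0.0330%) were Smox, Mss51, Inmt, Spns2, Tfcp2l1 and Fkbp5, and their levels were 1.94-fold to 5.10-fold below the androgen replete mean. The 4 higher genes (0.0220%) were Abhd18, Dbp, Per3 and Slc7a2, at 1.88-fold to 2.58-fold above it. For each of the 10, no castration array reached the range of the 6 androgen replete arrays. Genes picked for a small p in this contrast are likely to show such a gap, so it is a description only. In the whole table such a gap was found for 557 genes (3.06%), 342 with all castration arrays above (1.88%) and 215 with all of them below (1.18%). Among the 9096 genes above the median level the shares were 4.67% in all, 3.20% above and 1.47% below.

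**Figure D1:**
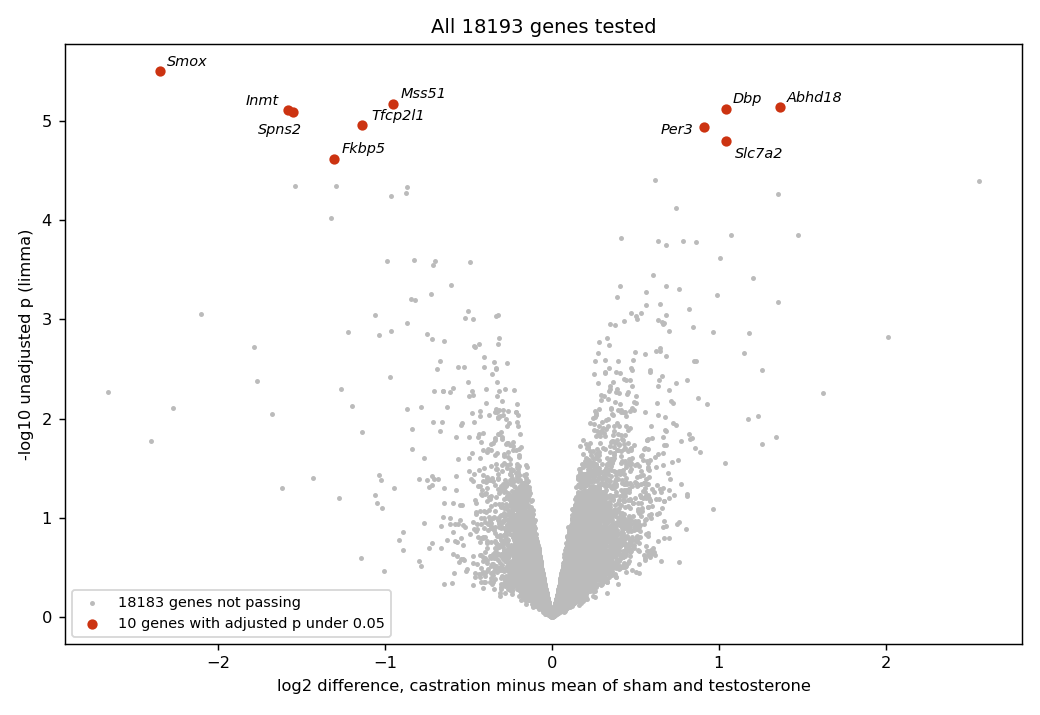
Each point is 1 of 18193 genes. The horizontal axis is the log2 difference of castration from the mean of sham and testosterone, and the vertical axis is −log10 of the unadjusted limma p. The 10 red points are the genes with an adjusted p under 0.05, from Smox at −2.35 to Abhd18 at 1.37.

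The 10 calls depended on the arrays and on the processing. After median centring of the arrays no gene passed (smallest adjusted p 0.0516), and none passed without limma's moderation of the variances (0.269). Leaving out sham 2 raised the count to 35, and leaving out sham 1 lowered it to 2. No gene passed without sham 3, testosterone 1, testosterone 3 or any 1 of the castration arrays, with a smallest adjusted p between 0.0582 and 0.278. All 10 genes kept their sign in each of the 21 other settings tried and passed in 8 (Tfcp2l1) to 12 (Smox) of them. When the probe sets of a gene were averaged, Smox, Mss51, Inmt, Spns2 and Dbp passed and the other 5 genes did not. Those 5 were Per3 at 0.18, Slc7a2 at 0.28, Abhd18 at 0.53, Tfcp2l1 at −0.37 and Fkbp5 at −0.60. Mss51, Inmt and Spns2 have 1 probe set each, so averaging could not change their values and is no check on them. In the 5 genes that did not pass, the probe set used was averaged with dimmer ones.

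Both comparisons that make up the contrast use the same castration arrays. Castration against sham alone gave 0 passing genes (0%) at a smallest adjusted p of 0.103, and 859 (4.72%) at an unadjusted p under 0.05. Castration against testosterone alone gave 0 (0%) at 0.0610 and 633 (3.48%). The contrast itself had 732 genes (4.02%) at an unadjusted p under 0.05, 469 higher (2.58%) and 263 lower (1.45%). Testosterone against sham gave 0 passing genes (0%) at a smallest adjusted p of 0.780, and 791 (4.35%) at an unadjusted p under 0.05. The contrast's unadjusted share was thus below that of testosterone against sham. Each of these unadjusted shares was below that expected at this threshold if no gene differed, so the counts do not measure a response.

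Sham 2 and testosterone 2 resembled the other arrays least. Their mean correlations with the other arrays were 0.972 and 0.981, against 0.989 to 0.991 for the remaining 7. Genes that define muscle fibres were near the top of the scale on all arrays, with Acta1 between 14.17 and 14.24 and Ckm between 13.96 and 14.03. Fat differed between arrays: summed over 11 adipocyte markers without Car3, the linear level was 1686 to 2030 on the castration arrays. It was 1923, 3526 and 2561 on sham 1, 2 and 3, and 2841, 3465 and 1643 on testosterone 1, 2 and 3. On this sum, sham 1 thus lay inside the castration range and testosterone 3 below it. A linear sum is weighted to bright markers such as Fabp4 (10.52 to 11.31). With 12 markers, Car3 included, weighted equally as log2 deviations from each gene's mean, castration arrays were at −0.50, −0.48 and −0.53. The lowest replete arrays were then testosterone 3 at −0.39 and sham 1 at −0.30, both above castration. The part of fat in the results was not tested. In pooled whole muscle, fewer cells of a type and less RNA per cell cannot be told apart.

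Polyamines are small cations made from ornithine that growing cells need, and their enzymes held the gene with the smallest p. Smox, spermine oxidase, which turns spermine back into spermidine, was at 10.63, 9.65 and 10.09 on sham 1, 2 and 3 and at 10.15, 10.24 and 10.55 on testosterone 1, 2 and 3. On castration 1, 2 and 3 it was at 7.48, 8.09 and 8.03. The lowest replete array, sham 2, was still well above the highest castration array. Smox fell by 2.35 (SE 0.22) on the log2 scale, or 5.10-fold, with an adjusted p of 0.0244. Testosterone and sham differed by 0.19 (95% interval −0.39 to 0.77).

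Odc1, ornithine decarboxylase, which makes the first polyamine, averaged 8.57 ± 0.25 (SD, n = 3) after castration, 9.70 ± 0.46 in sham and 10.08 ± 0.14 with testosterone. All castration arrays (8.28 to 8.73) were below the lowest replete array, sham 2 at 9.17. The difference was −1.33 (SE 0.19), 2.51-fold, and its adjusted p of 0.0853 did not pass, although its 3 probe sets gave −1.33, −1.42 and −1.49. Sat1, the acetyltransferase that starts polyamine breakdown, differed by −0.03 and its arrays overlapped. Of 18 listed polyamine genes 14 were measured and 1 passed, Smox. The median difference was 0.02, where the median of all genes was 0.00. List members without a value here could not be judged.

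Mss51, a mitochondrial protein of fast muscle fibres, had the smallest castration SD of the 10 passing genes (0.03, n = 3). Its castration values were 10.99, 10.98 and 11.03, against 11.89, 11.89 and 12.12 in sham and 12.09, 11.72 and 12.01 with testosterone. Mss51 fell by 0.95 (SE 0.10), 1.94-fold, with an adjusted p of 0.0244. Testosterone and sham lay within −0.29 to 0.23 of each other (95% interval).

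Inmt, a methyltransferase that transfers methyl groups to indoleamines such as tryptamine, was at 5.61, 5.25 and 5.60 after castration. Sham arrays had 7.10, 6.59 and 7.04, and testosterone arrays 7.10, 7.58 and 7.00. Inmt fell by 1.58 (SE 0.17), 3.00-fold, with an adjusted p of 0.0244. Spns2, which exports the signalling lipid sphingosine 1-phosphate from cells, was at 6.08, 6.15 and 6.27 after castration. It was at 7.95, 7.25 and 7.81 in sham and at 7.82, 7.50 and 7.97 with testosterone, so the replete groups overlapped each other and not castration. Spns2 fell by 1.55 (SE 0.16), 2.93-fold, with an adjusted p of 0.0244. It was the 1 passing gene among 19 measured genes of sphingosine 1-phosphate transport, synthesis and reception, whose median was 0.02.

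Fkbp5, a co-chaperone of steroid receptors and a known target of androgen and glucocorticoid receptors, was at 6.30, 6.32 and 6.58 after castration. Sham arrays spread from 7.22 to 7.99 and testosterone arrays from 7.78 to 7.92. Fkbp5 fell by 1.30 (SE 0.16), 2.47-fold, with an adjusted p of 0.0432. Its mean was 7.55 ± 0.40 (SD, n = 3) in sham and 7.86 ± 0.08 with testosterone, a difference of 0.31 (95% interval −0.11 to 0.73). The other probe sets of Fkbp5 had the same sign, at −0.37 and −0.12, and much lower levels.

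Tfcp2l1, a transcription factor of the grainyhead family, was the passing gene whose replete groups were farthest apart. It was at 3.72, 3.57 and 3.43 after castration, at 4.43, 4.27 and 4.69 in sham and at 4.99, 5.14 and 4.73 with testosterone. The 3 groups did not overlap, and testosterone exceeded sham by 0.49 (95% interval 0.16 to 0.82). Tfcp2l1 fell by 1.14 (SE 0.13) in the contrast, with an adjusted p of 0.0258. Its castration values were close to the array medians of 3.15 to 3.26, and another 2 probe sets, at mean levels of 2.73 and 2.86, differed by 0.07 and −0.04.

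**Figure D2:**
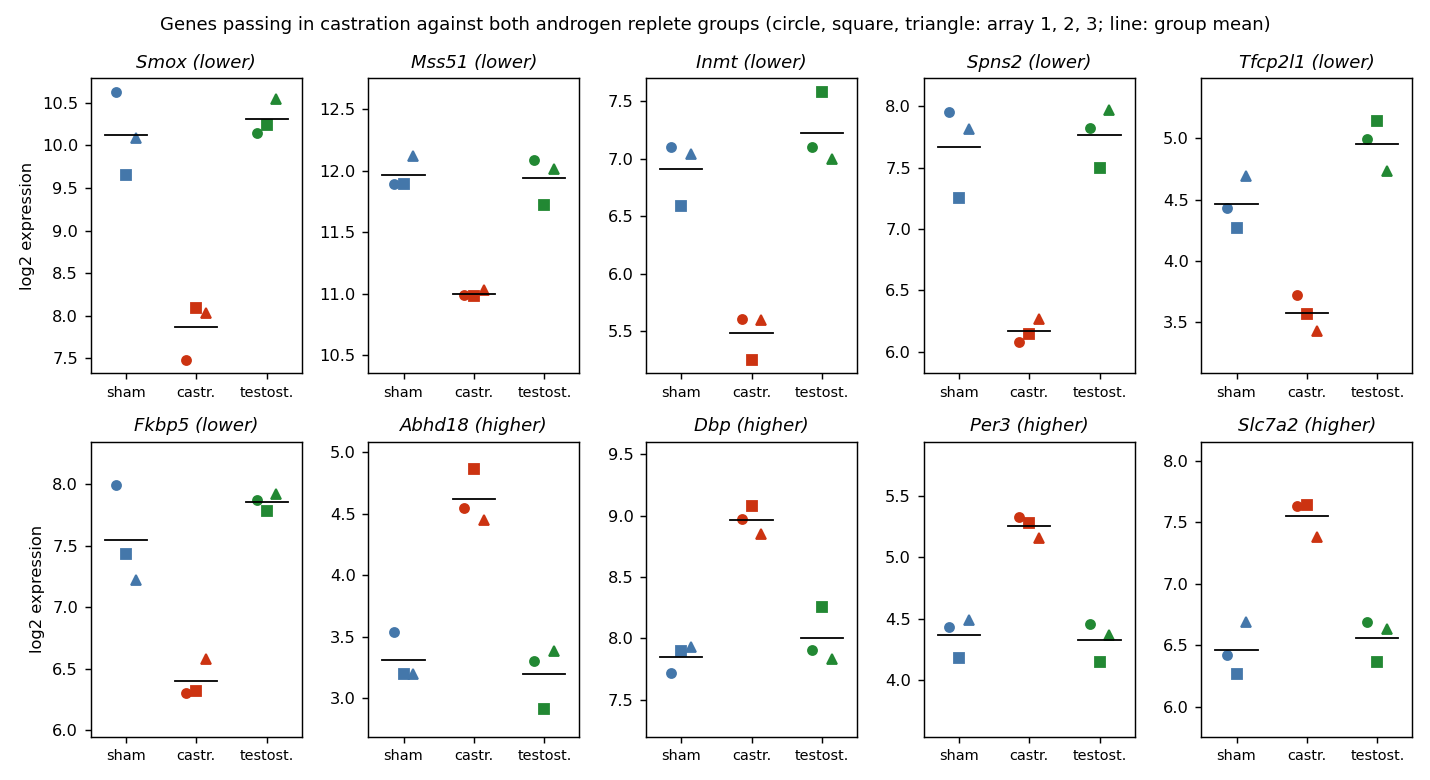
Log2 expression of the 10 passing genes on each array, with 1 panel per gene, symbols for arrays 1, 2 and 3 of a group and a line at the group mean. Castration lies below both other groups in the first 6 panels and above them in the last 4, and the sham and testosterone values overlap in each panel except that of Tfcp2l1.

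Among the genes higher without androgen, Dbp and Per3 belong to the circadian clock. Dbp encodes a transcription factor that binds D-box elements and carries the rhythm to output genes, and Per3 encodes a period protein. Dbp was at 8.97, 9.08 and 8.85 after castration, at 7.72, 7.90 and 7.93 in sham and at 7.91, 8.26 and 7.83 with testosterone. Dbp rose by 1.04 (SE 0.11), 2.06-fold, with an adjusted p of 0.0244, and its second probe set gave 1.19. Per3 was at 5.33, 5.28 and 5.16 after castration, whereas the 6 replete arrays lay between 4.15 and 4.49. Per3 rose by 0.91 (SE 0.10), 1.88-fold, with an adjusted p of 0.0258. Only the probe set used was clearly above the array medians, and the other 5 differed by −0.02 to 0.12. The labels give no time of day for the dissection, so whether the groups were sampled at the same clock time was not tested.

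For 10 higher and 10 lower genes, those ranking first by p, promoters were searched because members that move together may share elements. RefSeq (GRCm38.p6) gave entries for 17. The 250 bases before the start site were scanned on both strands for the androgen receptor hexamer AGAACA, for AGAACA followed by TGTTCT 3 bases later, for the E-box CACGTG, the D-box TTATGTAA, the ROR element TAGGTCA and the cAMP element TGACGTCA. The hexamer lay in 16.1% of all 32851 promoter windows and in 0 of the 17 genes. The paired hexamers lay in 0.00913% of windows and in none of the 17. The D-box was found in 0.819% of windows and in 1 of the 17 genes, Per3, which held it at 2 places that start 205 and 158 bases before the start site. The E-box was found in 6.02% of windows and in 1 gene, Fkbp5, at 169 bases. The ROR element (2.23% of windows) and the cAMP element (1.55%) were in none of the 17. Both windows with a match are printed 5′ to 3′ on the gene's strand, with the match in capitals, for Per3 at chr4:151044666-151044915 (minus strand) and for Fkbp5 at chr17:28486150-28486399 (minus strand).
Per3: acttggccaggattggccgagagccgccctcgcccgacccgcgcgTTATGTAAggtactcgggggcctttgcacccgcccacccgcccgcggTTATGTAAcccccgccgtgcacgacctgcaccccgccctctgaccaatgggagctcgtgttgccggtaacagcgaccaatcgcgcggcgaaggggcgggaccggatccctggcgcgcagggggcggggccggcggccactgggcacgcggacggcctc
Fkbp5: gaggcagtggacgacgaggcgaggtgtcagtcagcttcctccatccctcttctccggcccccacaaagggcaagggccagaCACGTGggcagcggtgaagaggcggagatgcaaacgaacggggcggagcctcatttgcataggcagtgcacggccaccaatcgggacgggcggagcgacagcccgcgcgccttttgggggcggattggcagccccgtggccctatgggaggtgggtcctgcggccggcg
A match is a description of the letters and does not show that a factor binds there.

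In the rest of the clock, 18 core genes were measured and Per3 alone passed. The core median was 0.00, with 9 genes on each side, and 3 of 18 had all castration arrays above the replete arrays, as did 1.88% of all genes and 3.20% of those above the median level. Members named here after their values were seen were Ciart at 0.41, Nr1d2 at 0.43, Per1 at 0.82 and Arntl, which encodes BMAL1, at −0.84. None of these 4 passed, with adjusted p between 0.714 and 0.999. Per1, a repressor of the loop, was at 5.84, 5.21 and 4.63 after castration and at 4.04 to 4.95 on the replete arrays. Arntl, the activator, was at 4.90 to 5.09 after castration and at 5.72 to 6.50 on 5 of the replete arrays, but testosterone 2 had 5.03, and its other probe set, 1 of 2, was near the array medians and did not share this sign. Among 17 clock output genes Dbp alone passed, and the median was 0.09.

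Slc7a2, a carrier of arginine, lysine and ornithine into cells, was at 7.63, 7.64 and 7.38 after castration. Sham arrays had 6.42, 6.27 and 6.69 and testosterone arrays 6.69, 6.36 and 6.63. Slc7a2 rose by 1.04 (SE 0.12), 2.06-fold, with an adjusted p of 0.0321. Its other 3 probe sets were at mean levels of 2.69 to 2.95, with differences of −0.02 to 0.09. It was the 1 passing gene among 23 amino acid transporters, whose median was −0.05. Slc38a2, a carrier of small neutral amino acids named after its values were seen, ran the other way at −1.06 (adjusted p = 0.291). It was at 7.72, 8.02 and 7.79 after castration and at 8.89 to 9.21 on 5 replete arrays, while sham 2 had 8.02.

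Abhd18, a little described protein of the hydrolase fold family, was at 4.55, 4.86 and 4.45 after castration. Replete arrays lay between 2.91 and 3.54, around the array medians, so its fold of 2.58 is read against a level that may be background. Abhd18 rose by 1.37 (SE 0.14), with an adjusted p of 0.0244. The other probe sets gave 0.22 and 0.02, both near the array medians.

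Genes next in order of p did not pass with all arrays. In each of the next 6 higher and 4 lower genes the castration arrays lay outside the replete range, as in 3.06% of all genes. These genes were picked by p on the same arrays, so this too is a description only. Among higher genes, Aldh7a1, an aldehyde dehydrogenase of lysine breakdown, was at 6.59, 6.59 and 6.77 after castration and at 5.94 to 6.17 on replete arrays. The difference was 0.62 (adjusted p = 0.0561). Actc1, cardiac alpha-actin, an embryonic actin in skeletal muscle, had the greatest difference of the 20 genes at 2.56 (SE 0.33, adjusted p = 0.0561). It was at 10.73, 10.02 and 10.30 after castration, at 7.37, 8.59 and 8.74 in sham and at 7.90, 6.98 and 7.17 with testosterone. Testosterone was below sham by −0.89 (95% interval −1.76 to −0.01), so its replete groups were not at 1 level.

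Sesn1, a sestrin that restrains mTORC1 when amino acids are scarce, was at 7.72, 7.84 and 7.47 after castration and at 5.90 to 6.60 on replete arrays. The difference of 1.35 had an adjusted p of 0.0567, and its 4 probe sets had the same sign. Itm2a, a membrane protein of differentiating cells, differed by 0.74 (adjusted p = 0.0715), Gstm2, a glutathione transferase, by 1.48 (0.116) and Myog, the myogenic factor myogenin, by 1.07 (0.116). Myog was at 5.93, 5.46 and 5.28 after castration, at 4.30 to 4.38 in sham and at 4.40 to 4.97 with testosterone.

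Among lower genes, Slc30a2, a zinc transporter of vesicles, was at 4.04, 4.30 and 4.61 after castration and at 5.03 to 6.20 on replete arrays. The difference was −1.54 (adjusted p = 0.0561), and testosterone exceeded sham by 0.52 (95% interval −0.01 to 1.06). Hr, the corepressor hairless, was at 4.88, 5.21 and 5.37 after castration and at 5.98 to 7.05 on replete arrays, a difference of −1.29 (adjusted p = 0.0561). Testosterone exceeded sham for Hr by 0.49 (95% interval 0.04 to 0.94). Serpinb6a, an intracellular protease inhibitor, differed by −0.87 and Rnf126, a ubiquitin ligase, by −0.96, each with an adjusted p of 0.0567.

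**Figure D3:**
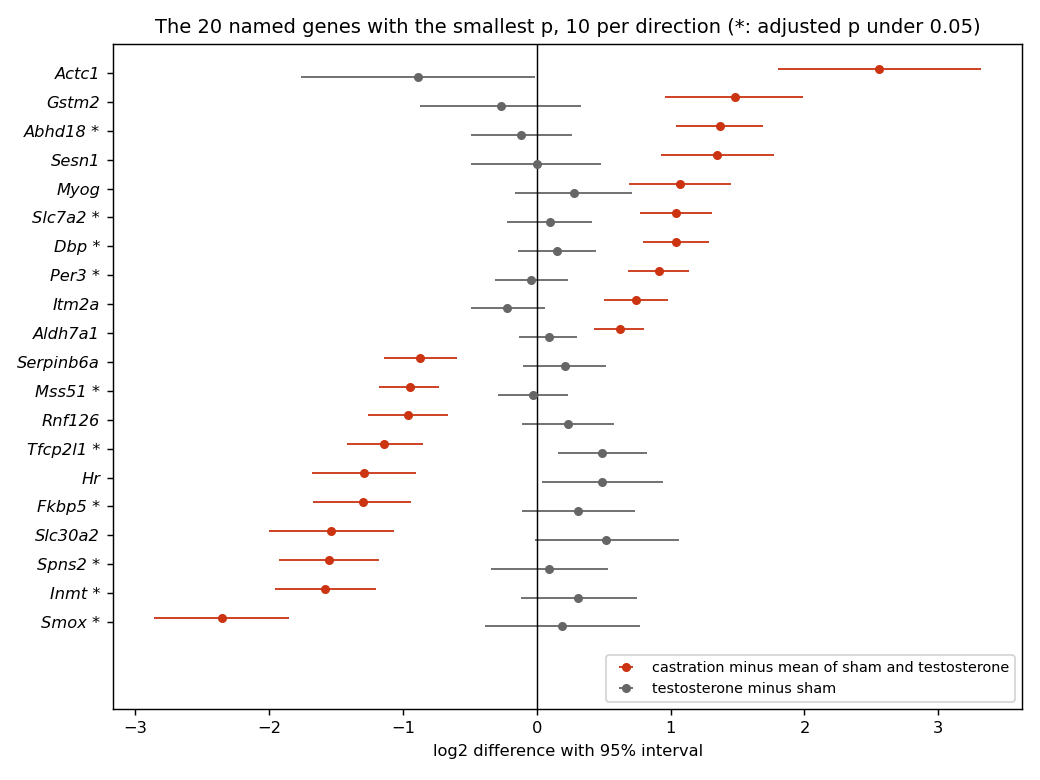
Log2 differences with 95% intervals for the 20 genes with the smallest p, 10 per direction. Red is castration minus the mean of sham and testosterone, and grey is testosterone minus sham. The grey interval includes 0 except for Tfcp2l1 (0.16 to 0.82), Hr (0.04 to 0.94) and Actc1 (−1.76 to −0.01).

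When sham 2 and testosterone 2 were left out, 51 of 18193 genes passed, 20 higher and 31 lower. All 10 genes that passed with all arrays were among them. Of the 51, 50 were also among the 135 that passed when arrays were weighted by their agreement with their group. That setting gave sham 2 and testosterone 2 the lowest weights (0.164 and 0.437) and sham 1 the highest (4.61), with sham 3 at 0.644. Its sham mean thus rested mostly on sham 1. The setting comes near to leaving out sham 2 and gives testosterone 2 less weight than the rest of its group. It is not separate support. Of the 51, 43 had castration arrays apart from all 6 replete arrays, sham 2 and testosterone 2 included, against 3.06% of all genes. Genes picked for a small p on the arrays kept are likely to be apart on them, so this count is a description only. Genes of the lists that passed here but not with all arrays included Nmrk2, a nicotinamide riboside kinase of muscle, at −2.17, and Slc2a3, a glucose transporter, at −2.15. They also included Lpin1, a phosphatidate phosphatase, at −0.56, Ppp1r3c, which brings a phosphatase to glycogen, at −0.81, and Grb10, an adaptor that restrains insulin signalling, at 0.90. Odc1 at −1.46 and Slc38a2 at −1.25 passed here as well, and in both sham 2 was the replete array nearest to castration. Slc2a3 was at 3.75 to 4.16 after castration and at 5.94 to 6.37 on 5 replete arrays, and sham 2 had 4.14. Nmrk2 was at 6.58 to 6.95 after castration, 7.32 on sham 2 and 8.10 to 9.63 on the other replete arrays. Grb10 had the same sign in only 1 of 3 probe sets.

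Functions were read from 46 gene lists with 974 list entries measured. With all arrays, 8 of the 10 passing genes belonged to a list, and no list had more than 2 passing members. The lists were chosen with earlier results of these data known, so the 8 of 10 is no support for a shared function. Androgen response genes, defined mostly in prostate, had 2 of 32 passing, Smox and Fkbp5, both lower. Their median was −0.01, with 4 of 32 apart and lower and 0 apart and higher, against 1.18% and 1.88% of all genes. The list of steroid receptors and coregulators had 1 of 21 passing, Fkbp5, with 3 apart in each direction (1.88% of all genes higher, 1.18% lower). Esr1, the estrogen receptor, differed by 0.67 (adjusted p = 0.300) and Hsd11b1, which regenerates active glucocorticoid, by −0.97 (adjusted p = 0.549), both named after their values were seen.

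Glucocorticoid responsive genes had 1 of 23 passing, Fkbp5, and did not share a direction, with a median of −0.04. Castration arrays were apart and lower for Fkbp5, Mt1 and Mt2, and apart and higher for Sesn1 and Klf15, 3 and 2 of 23 against 1.18% and 1.88% of all genes. The metallothioneins Mt1 and Mt2, which bind zinc, differed by −0.71 (adjusted p = 0.839) and −0.69 (0.999). Klf15, a transcription factor of amino acid breakdown, differed by 0.44 (0.755), and Zbtb16, which overlapped, by −0.87 (0.755). Mt2 and Zbtb16 were named after their values were seen.

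Of 29 genes of amino acid breakdown, 21 were higher without androgen, with a median of 0.21, and 0 passed. At an unadjusted limma p under 0.05 there were 9 of 29, all higher, against 2.58% of all genes higher and 1.45% lower. In 6 of 29 (20.7%) all castration arrays were above all replete arrays, and in 0 below. All genes gave 1.88% and 1.18%, and those above the median level 3.20% and 1.47%. The smallest p after Aldh7a1 were those of Gcdh, glutaryl-CoA dehydrogenase of the lysine path, at 0.47 (adjusted p = 0.495), and Ivd, isovaleryl-CoA dehydrogenase of the leucine path, at 0.32 (0.512). Dbt and Bckdhb, subunits of the branched-chain ketoacid dehydrogenase, differed by 0.74 and 0.68 (0.580 and 0.783) and were named after their values were seen. With those arrays left out, sham 2 and testosterone 2, the median became 0.12 and Aldh7a1 passed.

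Among muscle breakdown genes none passed on its brightest probe set. The atrophy ligase and FoxO list had 0 of 21 passing and a median of 0.05. Fbxo32, the ubiquitin ligase atrogin-1, was at 10.01 to 10.23 after castration, 10.05 to 10.42 in sham and 10.62 to 11.12 with testosterone, a difference of −0.43 (adjusted p = 0.778). A dimmer probe set of Fbxo32, 1417522_at, averaged 7.73 after castration and 8.74 on replete arrays, a difference of −1.01, and passed when all probe sets were tested (adjusted p = 0.0371), while another gave −0.26. Trim63, the ligase MuRF1, differed by −0.20 (adjusted p = 0.999). The proteasome list had 0 of 31 passing and a median of 0.05. The autophagy and lysosome list had 0 of 27 passing and a median of 0.09. Its smallest p were those of the protease gene Ctsl at 1.01 (adjusted p = 0.151), Pink1 at 0.31 (0.459) and Map1lc3a at −0.65 (0.620), and 1 of the 2 Ctsl probe sets had the opposite sign.

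The stress list of sestrins, growth arrest and p53 genes had 0 of 25 passing and a median of 0.01. In 4 of 25 all castration arrays lay above the replete arrays, as in 1.88% of all genes and 3.20% of those above the median level. After Sesn1 the smallest p were those of Ddit4l, an mTOR inhibitor of muscle, at 0.43 (adjusted p = 0.297) and Gadd45a at 0.38 (0.302). IGF and insulin signalling genes had 19 of 23 higher and a median of 0.17, with 0 passing and 4 apart and higher. Of all 18193 genes, 9406 were higher and 1.88% were apart and higher. Grb10 differed by 1.18 (adjusted p = 0.331), Pik3ca by 0.45 (0.999) and Igfbp3 by 0.34 (0.999). Igf1 was at 3.86 on sham 2 and 4.87 on testosterone 2, and at 6.28 to 6.99 on the other 7 arrays, so its difference of 0.76 lay within the spread (adjusted p = 0.999). The mTOR and translation list had 0 of 22 passing (median 0.08), and the activin and TGF-beta list 0 of 29 (median 0.06).

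No contractile gene passed. The fast sarcomere list had 0 of 19 passing and a median of 0.04, and the slow list 0 of 15 and 0.02. Myosin heavy chain genes gave differences of 0.04 for Myh4, 0.10 for Myh2, −0.13 for Myh1 and −0.09 for Myh7, each with an adjusted p of 0.999. The sign of Myh7 turned in 4 of the other settings. In the developmental sarcomere list, 0 of 15 passed and the median was 0.03, and Myh3, embryonic myosin, differed by −0.18 where Actc1 differed by 2.56. Neuromuscular junction genes had 0 of 21 passing and a median of 0.12, which was 0.01 without sham 2 and testosterone 2. The myogenic and satellite cell list had 0 of 25 and 0.06, the triad list 0 of 26 and 0.05, and the calcineurin and calpain list 0 of 17 and 0.04.

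In fuel metabolism, the list of PGC-1 and mitochondrial regulators had 1 of 25 passing, Mss51, which was lower, while 20 of the 25 were higher and the median was 0.16. This median was 0.08 without sham 2 and 0.07 without sham 2 and testosterone 2. The respiratory chain had 0 of 41 passing (median 0.04), fatty acid oxidation 0 of 24 (0.01), glycolysis 0 of 22 (0.00) and glycogen 0 of 19 (0.01). Ppp1r3c of the glycogen list was at 10.65 to 10.91 after castration and at 11.25 to 11.78 on the replete arrays, a difference of −0.72 (adjusted p = 0.156).

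Of 23 lipid synthesis genes, 16 were lower without androgen, with a median of −0.21 and 0 passing. Lpin1 was at 9.30 to 9.39 after castration and at 9.54 to 10.06 on the replete arrays, a difference of −0.49 (adjusted p = 0.151). Scd1, the delta-9 desaturase, was at 6.76, 7.10 and 6.20 after castration, at 7.91, 10.57 and 9.33 in sham and at 9.87, 10.71 and 7.69 with testosterone. The difference for Scd1 was −2.66 (adjusted p = 0.620), and Dgat2 differed by −1.14 (0.934). The replete arrays with the lowest Scd1, sham 1 and testosterone 3, were also those with the lowest adipocyte sums, and the part of fat cells in these values was not tested. Adipocyte markers were lower in 11 of 12 (median −0.62, and −0.39 without sham 2), with 0 passing, where 8787 of all genes were lower. Castration arrays were apart and lower for 3 of the 12 and apart and higher for 1, against 1.18% and 1.88% of all genes. Adipoq, the adipocyte hormone adiponectin, was at 5.29 to 5.58 after castration and at 5.45 to 9.21 on the replete arrays. The defining marker Lep was at 2.80 to 2.91 on the castration arrays, near background. Sterol synthesis genes had 0 of 18 passing and a median of −0.05.

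Matrix genes were mostly higher after castration than in the mean of sham and testosterone. Collagens were higher in 16 of 19 (median 0.27) and other matrix and tendon genes in 34 of 38 (median 0.22), with 0 passing in each, where 9406 of all 18193 genes were higher. Col14a1 differed by 0.85 (adjusted p = 0.459), Col3a1 by 0.39 (0.839), Col1a1 by 0.86, Lamb2, a laminin chain, by 0.43, Postn by 0.57 and Lum by 1.26. The sums of the 19 collagen genes were 4960 to 5990 on castration arrays, 5205, 3021 and 5489 on sham 1, 2 and 3, and 3407 to 3818 with testosterone. Sham 1 and sham 3 thus lay within the castration range, so the collagen sums did not separate deprived from replete muscle. As mean log2 deviation from each gene's mean, the other matrix genes were at 0.19, 0.29 and 0.08 after castration. Sham 1, 2 and 3 were at 0.10, −0.58 and 0.20, and testosterone 1, 2 and 3 at 0.04, −0.17 and −0.15. Here too sham 1 and sham 3 were within the castration range. The medians were 0.15 for collagens and 0.08 for other matrix genes without sham 2 alone, and 0.21 and 0.10 without sham 2 and testosterone 2.

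No marker of another cell type passed. Endothelial genes were higher in 16 of 18 (median 0.22), and macrophage and lymphocyte genes lower in 17 of 23 (median −0.22). The immune median was −0.06 without testosterone 2 and 0.01 without sham 2 and testosterone 2. Medians were 0.05 for smooth muscle and pericytes, 0.01 for Schwann cells and nerve, −0.05 for red cells and −0.09 for epidermis, with 0 passing in each. The muscle fibre list had a median of 0.04. Heat shock genes had a median of 0.11, immediate early genes −0.01 and cytosolic ribosomal proteins 0.02, also with 0 passing. The list of creatine and methyl transfer had 1 of 17 passing, Inmt (median 0.06). NAD salvage genes had 0 of 17 (median 0.06), with Nmrk2 at −1.77 (adjusted p = 0.566), and zinc genes 0 of 16 (median 0.04).

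**Figure D4:**
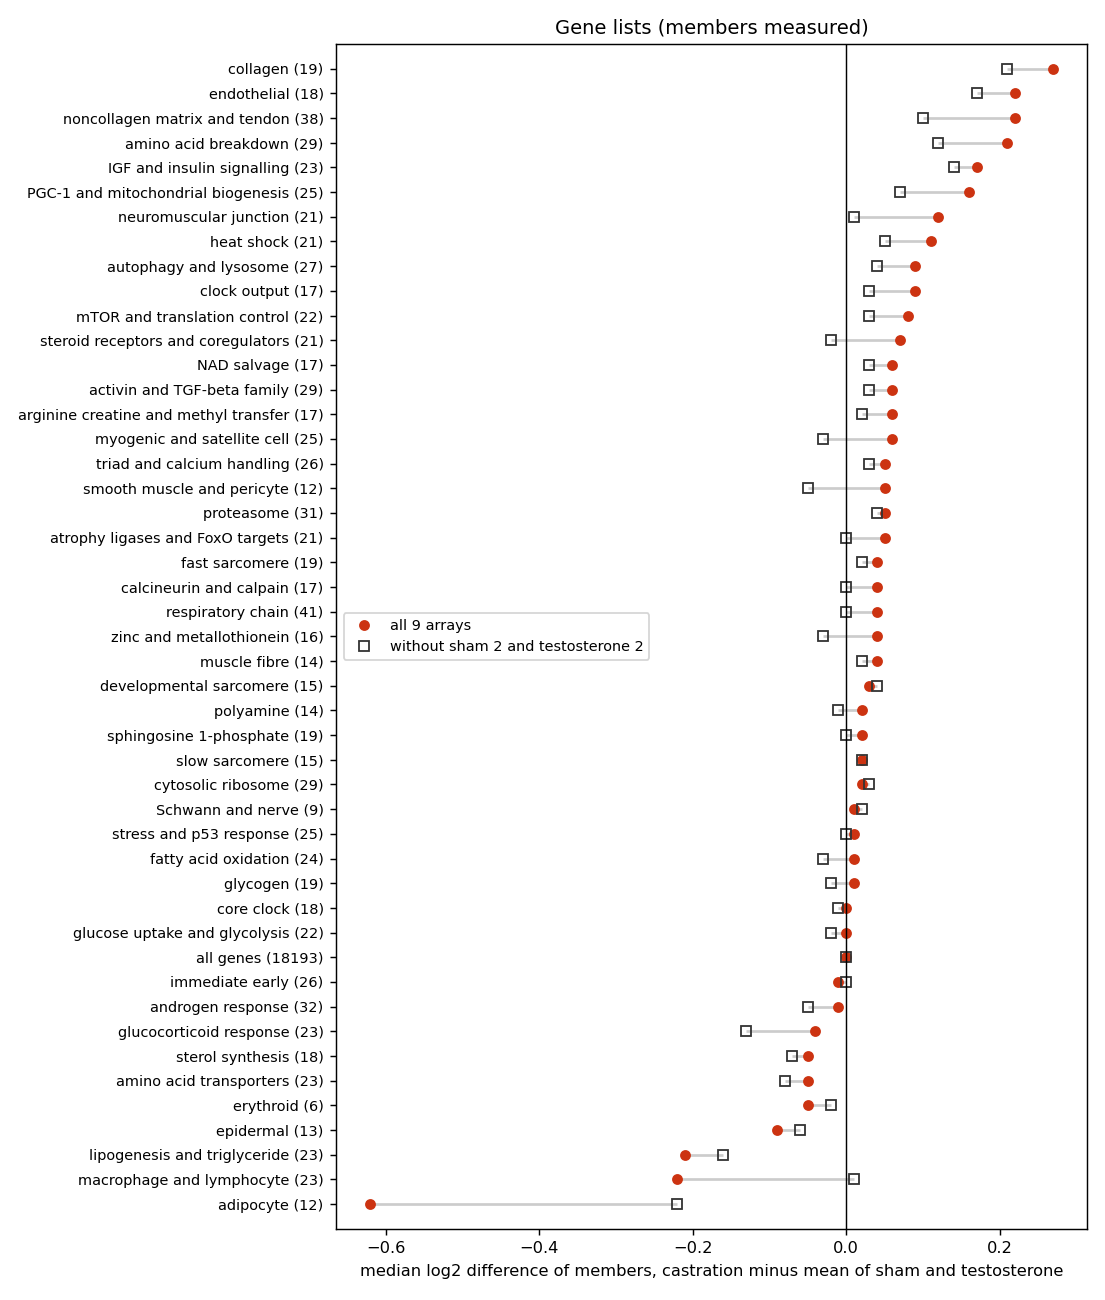
Median log2 difference, castration minus the mean of sham and testosterone, for each gene list, with the number of measured members in brackets. Filled circles use all 9 arrays and open squares leave out sham 2 and testosterone 2; the adipocyte median moves from −0.62 to −0.22 and the immune median from −0.22 to 0.01.

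**Figure D5:**
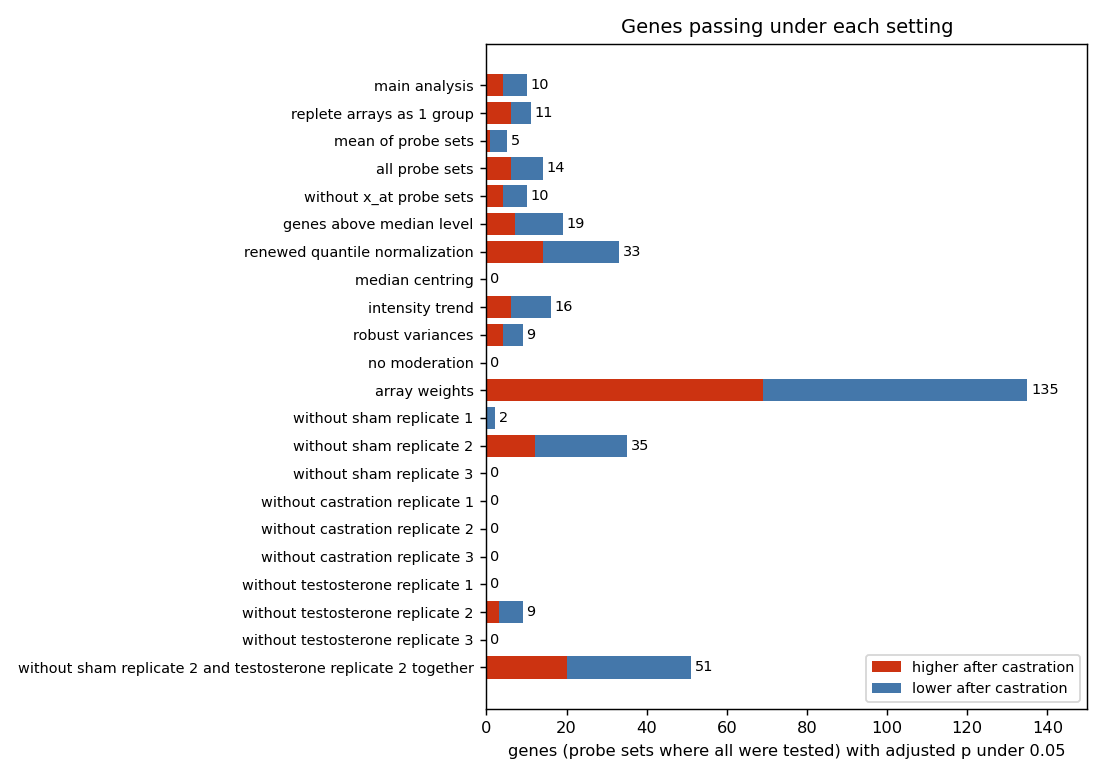
Number of genes with an adjusted p under 0.05 in each setting, split by direction. The main count is 10; array weights give 135, leaving out sham 2 gives 35, and leaving out any castration array gives 0.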

How the data were processed

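Expression was measured with Affymetrix arrays of labelled total RNA, and equal amounts (4 µg) from 3 animals were combined per array, per the labels. Deposited values were log2 expression levels, which the authors computed with RMA (named in the submitters' processing notes, version not given in the sources used here). This method normalises all arrays together, so an aberrant array can move the others. Of 45101 probe sets, 34945 were listed to 1 gene, 932 to several, and 9160 besides the 64 controls were unlisted. Each gene was read from its brightest probe set, chosen by the mean over all arrays. Symbols were updated by gene identifier, and 204 probe sets kept the annotation's symbol.

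Group means were fitted with limma 3.58.1 in R 4.3.3 over all 9 arrays (lmFit, eBayes, two-sided, Benjamini-Hochberg over 18193 genes, threshold 0.05). The number of arrays, 3 per group, limits the precision. Alternatives covered probe set choice, scaling, variance models, array weights and left-out arrays. Named genes were the 10 with the smallest p per direction, leaving out predicted and clone names, a fixed set, and from each list the passing members or the 3 with the smallest p. Members and lists were chosen with earlier results of these data known. Per the labels, replicates were biological and each is a pool, so a p-value reflects variation among pools. On simulated data for this contrast over 18193 genes, 43, 47, 47 and 50 of 50 genes were recovered where the log2 size was 1, 1.5, 2 and 3. In the same run 15 unchanged genes were called. Noise was drawn independently from a normal distribution with each gene's spread within groups, without aberrant arrays. The genes of all 4 sizes were changed at once, which eases the adjusted threshold. The recovered shares therefore do not give the share of real changes found here.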

Additional observations from a re-analysis of the deposited data

Results flagged for a closer look

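For 135 named genes, the 6 androgen replete arrays were searched for 1 array far from the other 5, by the gap to its neighbour over the whole range (Dixon's 95% limit for 6 arrays). About 1 in 20 genes would be picked if the 6 arrays were independent draws from 1 normal population, and 17 were. The arrays come from sham and testosterone, and many genes were named by their p, so that rate may not hold here. Sham 2 was the far array for 5 of them, testosterone 2 for 10 and testosterone 1 for 2.

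Sham 2 lay on the castration side for Slc2a3 (4.14, others 5.94 to 6.37, castration mean 3.99), Slc38a2 (8.02, others 8.89 to 9.21, castration mean 7.84), Odc1 (9.17, others 9.94 to 10.22, castration mean 8.57) and Slc30a2 (5.03, others 5.83 to 6.20, castration mean 4.32). For the endothelial gene Esam sham 2 was at 6.18, below the others (6.69 to 6.88) and farther from the castration mean of 7.01.

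Testosterone 2 was far from the others for Myog (4.97, others 4.30 to 4.49), Map1lc3a (11.26, others 10.40 to 10.59), Myh3 (3.55, others 3.18 to 3.22), Itga7 (7.94, others 7.56 to 7.66) and Phkg1 (9.18, others 9.36 to 9.47). The same array stood out for Ccn1 (5.97, others 5.06 to 5.39), Rps25 (5.37, others 4.48 to 4.74), Des (12.29, others 11.95 to 12.07), Cnp (7.26, others 6.25 to 6.54) and Bckdhb (6.63, others 7.22 to 7.56). Testosterone 1 stood out for Igfbp3 (4.00, others 3.49 to 3.67) and Mrln (10.33, others 10.02 to 10.12).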

How the results depend on the processing

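The count of 10 passing genes was 5 with probe sets averaged per gene, 19 among genes above the median level, 33 after renewed quantile normalization, 16 with an intensity trend and 135 with array weights. It was 0 after median centring (smallest adjusted p 0.0516), without moderation (0.269) and with a replicate block (0.116), and 51 without sham 2 and testosterone 2 together. Leaving out 1 array gave 0 to 35. Same-numbered arrays deviated together in some pairs only (correlations from −0.49 to 0.27), so the numbers were not taken to pair arrays. Leaving out 1 array gave 0 to 7 genes for castration against sham (18 without both arrays), 0 to 28 against testosterone (27 without both) and 0 to 1 for testosterone against sham. Signs turned for Sat1 (−0.16 to 0.12 leaving out 1 array, 0.05, 0.01 and 0.00 among them), Myh7 (−0.31 to 0.08, and 0.02 without both arrays), Hsd17b7 (0.05 without x_at probe sets) and Mb (0.02 with the mean of probe sets). Over the named genes and settings, 2624 values kept sign and side of the threshold, 108 no longer passed and 79 newly passed. The count of genes with castration arrays apart stayed within 1.5 times in both probe set alternatives. Genes near the array medians, such as Abhd18 and Tfcp2l1, have folds of uncertain size.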

Other observations

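When all probe sets besides the 64 controls were tested 1 by 1, 14 passed, 6 higher and 8 lower after castration. Of these, 3 are not listed to a gene in the annotation used: 1448484_at (10.64 after castration, 11.88 on replete arrays, adjusted p = 0.0371), 1416835_s_at (9.49 and 11.11, 0.0464) and 1420979_at (7.39 and 6.43, 0.0371). A probe set of Nudt4, a phosphohydrolase of inositol pyrophosphates, also passed, at 6.81 and 6.16 (adjusted p = 0.0371). Of the 10 genes called on their brightest probe set, 9 passed there too, and Fkbp5 did not.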
